A study of Mus musculus with 12 samples.

Results

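The genes described here are those that encode the ligands, receptors, Smad transducers and Id targets of the transforming growth factor-β (TGF-β) and bone morphogenetic protein (BMP) pathways. They were chosen by symbol, as every Bmp, Gdf, Smad and Id gene with a number, every Bmpr and Acvr gene, Inha and the Inhb genes, Tgfb1 to Tgfb3 and Tgfbr1 to Tgfbr3. These symbols gave 53 genes out of 45808 in the bulk count table and 31055 in the single-cell matrices. By role they were 28 genes of ligands or ligand subunits, 12 receptors with the co-receptor Tgfbr3 among them, 8 Smads, 4 Id genes and Bmp1. Despite its name, Bmp1 encodes a procollagen C-proteinase and not a BMP ligand.

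In this pathway, dimeric ligands bring together type II and type I serine/threonine kinase receptors, and the type I receptor phosphorylates receptor-activated Smads. Smad2 and Smad3 carry TGF-β and activin signals, Smad1, Smad5 and Smad9 carry BMP signals, both bind Smad4, and Smad6 and Smad7 act back as inhibitors. The Id genes encode dominant-negative helix-loop-helix proteins and are classic BMP targets. Activins, inhibins and BMPs are known in islets as paracrine regulators of hormone secretion.

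The study characterised the γ-cells of the mouse islet, which secrete pancreatic polypeptide (Ppy), by bulk RNA-seq of FACS-sorted cells and by droplet single-cell RNA-seq. The 5 bulk γ-cell libraries were YFP+ cells of mice carrying Ppy-rtTA, TetO-Cre and R26-YFP, which received doxycycline (DOX) at 1 mg/ml in drinking water from 1 month before extraction, as the labels give it, and were 2 months old. The methods of the study describe a shorter course of DOX. The 3 bulk δ-cell libraries were YFP+ cells of Sst-Cre, R26-YFP mice of the same age, in which Cre is driven by the somatostatin gene. The 4 single-cell libraries were the YFP+ and the YFP- islet cells of DOX-treated, 2-month-old mice labelled Ppy-rtTA, R26-YFP, in 2 independent experiments. According to the methods these held islets of 3 and 4 mice. All mice were of mixed background, and the labels of the δ-cell libraries carry the same text on DOX although their line has no DOX-dependent part. The rtTA sequence replaces the coding part of 1 Ppy allele, so that every YFP-labelled γ-cell lacks a working copy of that allele. The γ-cell libraries were sequenced paired-end and the δ-cell libraries single-end on another instrument, so that genotype, instrument, read layout and cell type cannot be told apart in the bulk comparison. If only the γ-cell mice received DOX, it cannot be told apart from cell type either. The sources do not say that each bulk library came from separate animals, and p-values measure the spread between these libraries only. In single cells they rest on 2 sums per class, with 1 estimate of the spread shared over all classes. Neither kind measures the spread between single animals.

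Bulk libraries held between 7641916 and 31784878 counts, with the δ-cell libraries the 3 shallowest. Summed levels of 4 γ-cell markers, led by Ppy and Pyy, lay between 169946 and 216434 CPM (counts scaled to library size, with TMM factors) in γ-cell libraries and between 22123 and 36350 in δ-cell libraries, and those of 5 δ-cell markers between 8178 and 13446 against 61465 to 89341. Of these δ-cell markers 4 were lower in γ-cell libraries and 1, Casr, was higher, at a mean of 151 against 41.4 CPM. α-cell markers summed to 48601 to 96807 CPM in γ-cell and 1404 to 5987 in δ-cell libraries, with 5 of 5 higher in γ-cells. Of 10 stromal markers 10 were higher in γ-cell libraries, with sums of 947 to 3863 CPM (the highest in γ-cell library 3) against 20.1 to 803. Of 10 acinar markers 10 were lower, with sums of 2297 to 13479 against 19708 to 82821. No marker on these lists was at 0 in every library, and in such bulk samples a smaller number of cells of a type and less RNA per cell cannot be told apart. The single-cell libraries held 1300 to 1689 cells with a median of 4237 to 8338 unique molecular identifiers (UMIs) per cell, and pairs of libraries shared 1 to 6 cell barcodes.

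Between bulk γ- and δ-cells, the pathway genes were mostly higher in γ-cells or did not pass the test. A gene was called at an edgeR adjusted p up to 0.05 with a log2 fold change of 1 or more in either direction. Of the 53 genes, 40 had enough counts to be tested and 23 were called, which is to be read against the 35% of all 17926 tested genes that were called. Higher in γ-cells were 18 members, beside 20.7% of all genes, and lower were 5, beside 14.2%. The median log2 fold change was 0.64 over the tested members and -0.06 over all tested genes. Without δ-cell library 1 the members' median was 1.31 and that of all genes 0.02. The 13 untested genes stayed at or below 0.559 CPM in every library, and 4 of them, Inhbc, Inhbe, Gdf1 and Gdf6, had no count at all. Gdf1 shares its transcript with Cers1, so its count is uncertain.

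**Figure D1:**
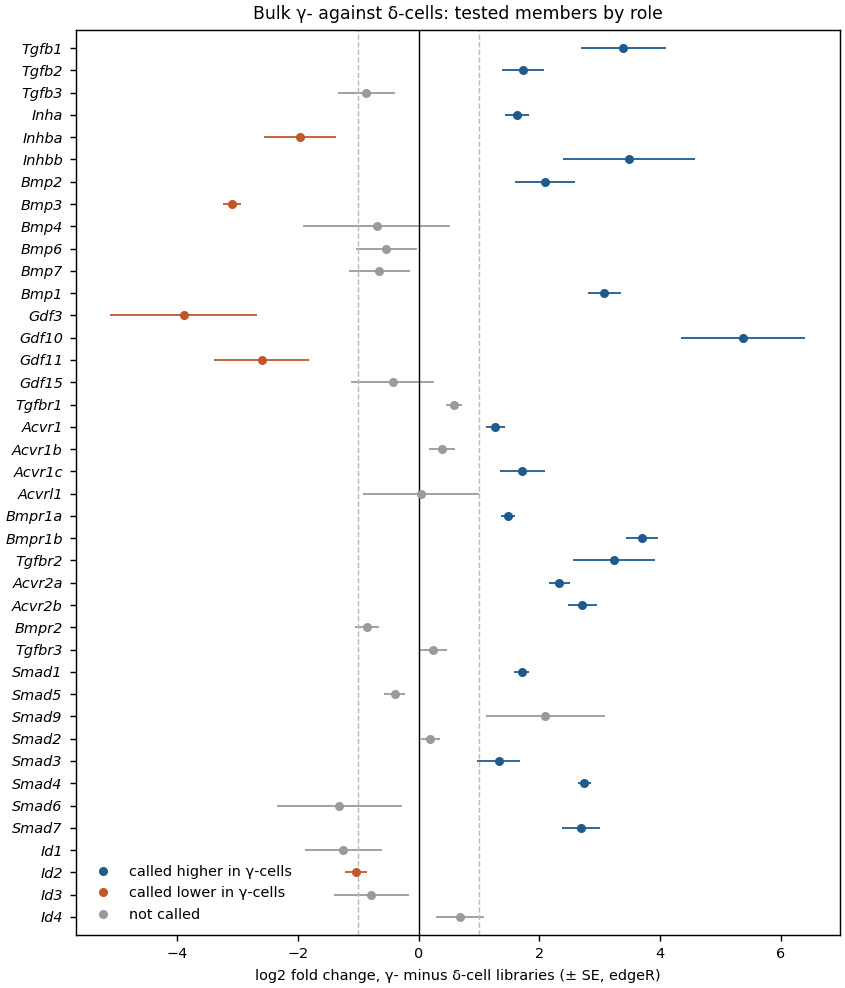
Log2 fold change of each of the 40 tested members, γ- minus δ-cell libraries, with its standard error (edgeR), ordered by role, with dashed lines at the fold threshold of 1 in either direction. The 18 members called higher (blue) include 7 receptors and 4 Smads, while the 5 called lower (orange) are 4 ligand genes and Id2.

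Of the ligand genes 15 of 28 were tested, 6 were higher and 4 were lower in γ-cells. Tgfb2, 1 of the 3 TGF-β isoforms, stood at 11.5, 9.59, 10.5, 14.2 and 13.3 CPM in γ-cell libraries 1 to 5 and at 5.88, 2.40 and 2.52 CPM in δ-cell libraries 1 to 3. Every γ-cell library was above every δ-cell library, and the difference was 1.73 ± 0.34 (log2, SE, edgeR adjusted p = 0.0017). Tgfb1, the isoform best known from immune and stromal cells, was at 1.34, 1.45, 3.43, 1.35 and 1.94 CPM against 0.113, 0.320 and 0.0814 CPM, a low level with 193 counts in all γ-cell and 6 in all δ-cell libraries. Its log2 difference was 3.39 ± 0.70 (edgeR adjusted p = 0.00227). Tgfb3 did not pass the test, with 4.77 to 11.7 CPM in γ-cell libraries and 30.4, 8.23 and 6.76 CPM in δ-cell libraries. Its highest value was in δ-cell library 1. In that library the marker sums of several other cell types were also the highest of all 8, with 3655 CPM for ductal, 82821 CPM for acinar, 198 CPM for endothelial, 744 CPM for B-lineage and 87.0 CPM for glial markers, and the part of these cells was not tested. In the single cells Tgfb3 was at 28.3 CPM in ductal-like, 20.4 CPM in stromal-like and 4.03 CPM in endothelial-like cells.

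The inhibin and activin subunits changed in both directions. Inha, the inhibin α subunit that turns activin dimers into inhibins, was at 56.2, 33.7, 58.7, 59.1 and 57.6 CPM in γ-cells and at 16.1, 15.4 and 20.03 CPM in δ-cells, a log2 difference of 1.63 ± 0.20 (edgeR adjusted p = 7.38e-05). It was the most abundant tested ligand gene in γ-cells per length of exon, at 36.0 CPM per kilobase, and the second member overall. Inhbb, which encodes the βB subunit, was at 0.720, 3.77, 5.79, 4.69 and 2.31 CPM against 0.905, 0.0799 and 0 CPM. These groups overlapped, since δ-cell library 1 was above γ-cell library 1, and the log2 difference of 3.49 ± 1.10 (edgeR adjusted p = 0.0211) was no longer called without δ-cell library 2 (adjusted p = 0.0807). Inhba, the βA subunit, was lower in γ-cells, with 1.47, 0.323, 1.30, 0.918 and 0.298 CPM against 2.26, 3.28 and 4.72 CPM. Its log2 difference was -1.96 ± 0.60 (edgeR adjusted p = 0.0181) and was not called without δ-cell library 3 (adjusted p = 0.0799).

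Among the BMP ligands, Bmp3 marked the δ-cell libraries. Bmp3 encodes a ligand known as an antagonist of other BMPs, and stood at 14.0, 14.3, 18.4, 20.3 and 18.3 CPM in γ-cells against 121, 152 and 161 CPM in δ-cells. The log2 difference was -3.09 ± 0.15 (edgeR adjusted p = 8.3e-08), and per kilobase Bmp3 was second only to Id2 among the members in δ-cells, at 19.6 CPM per kilobase. Bmp2, a ligand of the osteogenic BMP group, was higher in γ-cells at 3.37, 5.12, 3.76, 1.88 and 2.98 CPM against 1.13, 0.479 and 0.814 CPM (log2 difference 2.09 ± 0.50, edgeR adjusted p = 0.0052). Bmp4, Bmp6 and Bmp7 did not pass the test, with log2 differences between -0.70 and -0.54. Bmp4 ranged from 0.162 to 1.88 CPM in γ-cells and stood at 4.86, 0.240 and 0 CPM in δ-cells, again with its highest value in δ-cell library 1.

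Among the GDF genes 4 of 10 were tested. Gdf10, also called Bmp3b, was at 10.1, 5.17, 39.3, 9.13 and 9.17 CPM in γ-cells and at 0.905, 0.240 and 0 CPM in δ-cells. Its log2 difference of 5.37 ± 1.03 (edgeR adjusted p = 0.00133) was the largest of the tested members. The highest value was in γ-cell library 3, which also held the highest stromal marker sum. Gdf11, a close relative of myostatin, was lower in γ-cells, at 0.621, 0.108, 0.241, 0.0967 and 1.27 CPM against 2.94, 1.92 and 3.58 CPM (log2 difference -2.60 ± 0.79, edgeR adjusted p = 0.018), and lost its call without δ-cell library 3 (adjusted p = 0.0594). Gdf3 was also lower, at 0 to 0.269 CPM against 0.226, 1.36 and 2.77 CPM, on 9 counts in all γ-cell libraries (log2 difference -3.90 ± 1.21, edgeR adjusted p = 0.0203). Its groups overlapped, and its call was lost with a block for the replicate number in libraries 1 to 3 (edgeR adjusted p = 0.0564). Gdf15, a stress-responsive ligand, did not pass the test at 0.242 to 2.31 CPM against 1.13 to 1.38 CPM.

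Bmp1, the procollagen C-proteinase, was at 42.5, 48.4, 50.3, 43.5 and 50.8 CPM in γ-cells and at 8.59, 5.27 and 3.09 CPM in δ-cells. The log2 difference was 3.08 ± 0.28 (edgeR adjusted p = 6.57e-06).

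**Figure D2:**
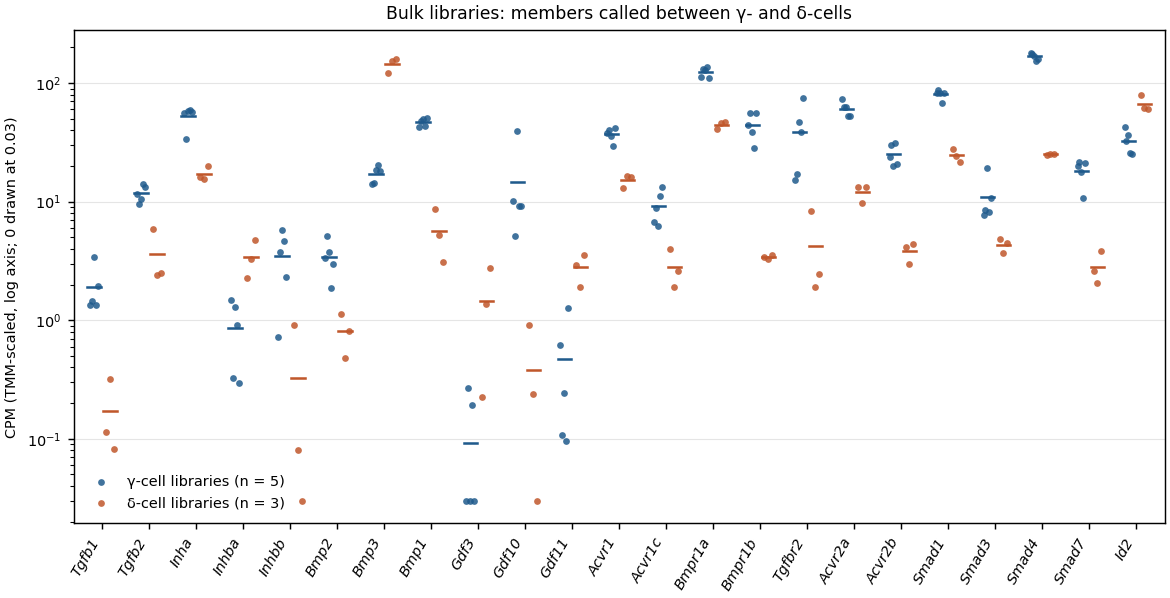
CPM (log axis, values of 0 drawn at the foot) of the 23 called members in each of the 5 γ-cell (blue) and 3 δ-cell (orange) libraries, with bars at the group means. Smad4 and Bmpr1b are far apart between tight groups, Gdf10 and Tgfbr2 are spread among γ-cell libraries, and Inhbb and Gdf3 overlap between groups.

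The receptors were either higher in γ-cells or not called. All 12 were tested, 7 were higher and none was lower. Of the type I receptors, Bmpr1b had the largest difference, with 44.4, 55.8, 39.0, 28.3 and 55.8 CPM in γ-cells against 3.39, 3.28 and 3.58 CPM in δ-cells (log2 difference 3.70 ± 0.27, edgeR adjusted p = 1.16e-06). Bmpr1a, the broadly expressed BMP type I receptor, was higher by 1.48 ± 0.11, at 113, 133, 129, 137 and 111 CPM against 41.4, 45.9 and 46.8 CPM (edgeR adjusted p = 1.68e-06). Acvr1, or ALK2, rose less, with 37.8, 39.97, 35.5, 29.2 and 41.9 CPM against 13.1, 16.6 and 16.0 CPM (1.27 ± 0.16, edgeR adjusted p = 7e-05), and fell just under the fold threshold at 0.98 with upper-quartile normalization. Acvr1c, or ALK7, a receptor for Nodal-type and activin ligands, was at 6.74, 8.78, 6.18, 11.3 and 13.3 CPM against 3.96, 1.92 and 2.61 CPM (1.71 ± 0.37, edgeR adjusted p = 0.00304). Each of these 4 genes had every γ-cell library above every δ-cell library, which was not counted over all tested genes.

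The TGF-β type I receptor Tgfbr1 passed the adjusted p but not the fold threshold, at 42.8 to 56.3 CPM against 27.4 to 36.6 CPM (log2 difference 0.59 ± 0.14, edgeR adjusted p = 0.0045). Acvr1b differed by 0.38 ± 0.22 and Acvrl1, the type I receptor of endothelial cells, by 0.04 ± 0.97. For Acvrl1 the value was 7.35 CPM in δ-cell library 1 and 0.559 and 0.407 CPM in the other δ-cell libraries, against 0.589 to 5.98 CPM in γ-cells.

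Of the type II receptors, both activin receptors were higher. Acvr2a was at 73.3, 63.5, 62.5, 52.6 and 53.2 CPM in γ-cells and 13.2, 9.83 and 13.4 CPM in δ-cells (log2 difference 2.33 ± 0.17, edgeR adjusted p = 1.16e-06). Acvr2b was at 23.8, 30.0, 19.9, 31.2 and 20.9 CPM against 4.18, 2.96 and 4.40 CPM (2.71 ± 0.24, edgeR adjusted p = 6.08e-06). Tgfbr2, the receptor that binds TGF-β ligands first, was at 15.1, 17.2, 47.4, 39.0 and 74.7 CPM against 8.37, 1.92 and 2.44 CPM (3.23 ± 0.68, edgeR adjusted p = 0.00245), and its 5 γ-cell libraries were the most widely spread of the called receptors. Bmpr2, the BMP type II receptor, went the other way without reaching the fold threshold, at 11.8 to 16.9 CPM against 31.3, 18.8 and 23.0 CPM (-0.86 ± 0.20, edgeR adjusted p = 0.00444). The co-receptor betaglycan, encoded by Tgfbr3, did not pass the test at 34.2 to 56.4 CPM against 24.4 to 51.1 CPM.

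Of the 8 Smads 4 were higher, from the common, both receptor-activated and the inhibitory groups, and none was lower. Smad4, the common partner, was at 181, 177, 170, 154 and 160 CPM in γ-cells and 25.0, 25.1 and 25.2 CPM in δ-cells, a log2 difference of 2.75 ± 0.10 (edgeR adjusted p = 2.43e-08). It was first of the members in γ-cells per length of exon, at 45.4 CPM per kilobase, and at 6.76 CPM per kilobase in δ-cells. Smad1, of the BMP branch, was at 82.3, 87.1, 83.0, 67.4 and 81.9 CPM against 27.9, 24.3 and 21.8 CPM (1.70 ± 0.13, edgeR adjusted p = 1.47e-06). Smad3, of the TGF-β branch, was at 7.69, 8.56, 19.2, 8.22 and 10.7 CPM against 4.86, 3.68 and 4.48 CPM (1.33 ± 0.35, edgeR adjusted p = 0.0093). The inhibitory Smad7 was at 20.2, 21.5, 17.8, 10.8 and 21.2 CPM against 2.60, 2.08 and 3.83 CPM (2.68 ± 0.31, edgeR adjusted p = 4.52e-05). Within each branch another member did not pass the test, since Smad5 differed by -0.40 ± 0.17, Smad2 by 0.19 ± 0.16 and Smad6 by -1.32 ± 1.04. Smad9, also of the BMP branch, did not pass it either at 2.10 ± 0.99 (edgeR adjusted p = 0.0988). It had 124 counts in all γ-cell and 10 in all δ-cell libraries.

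Of the 4 Id genes only Id2 was called. It was lower in γ-cells, at 42.9, 32.5, 36.4, 26.0 and 25.1 CPM against 79.2, 61.8 and 60.3 CPM (log2 difference -1.04 ± 0.18, edgeR adjusted p = 0.00079). It lay at the fold threshold and lost its call without γ-cell library 4 (-0.96), γ-cell library 5 (-0.95) or δ-cell library 1 (-0.89). Id1 was at 0.387 to 1.64 CPM against 0.896 to 3.96 CPM, and Id3 at 4.85 to 13.1 CPM against 26.2, 11.2 and 1.87 CPM, and neither passed the test. Id4 lay in the other direction, at 2.03 to 2.71 CPM against 0.977 to 1.81 CPM with no overlap between groups, and did not pass the test either (log2 difference 0.69 ± 0.40, edgeR adjusted p = 0.178). The 9 ductal markers summed to 1497 to 1768 CPM in γ-cells and 2312 to 3655 CPM in δ-cells, with 8 of 9 lower in γ-cells, and the part of ductal cells in the Id2 difference was not tested.

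The promoters of Tgfb2, Gdf10 and Bmpr1b are shown because these genes were among the ligands and receptors that were higher in γ-cell libraries. RefSeq windows of 250 bases before a gene's start were found for 38 of the 53 members. Each sequence below ends at the base before the RefSeq start, in GRCm38.p6, 5′ to 3′ on the strand of the gene, and capitals mark CAGAC, which is GTCTG, the Smad-binding core, read on the other strand, or GTCTG itself. Tgfb2 is at chr1:186622792-186705989 on the minus strand, and its window chr1:186705990-186706239 also overlaps a long non-coding gene, Gm29491. Gdf10 is at chr14:33923587-33937983 on the plus strand, with its window at chr14:33923337-33923586. Bmpr1b is at chr3:141837136-142169425 on the minus strand, and its window chr3:141982265-141982514 lies before an internal RefSeq start, inside the gene as GENCODE draws it.
Tgfb2: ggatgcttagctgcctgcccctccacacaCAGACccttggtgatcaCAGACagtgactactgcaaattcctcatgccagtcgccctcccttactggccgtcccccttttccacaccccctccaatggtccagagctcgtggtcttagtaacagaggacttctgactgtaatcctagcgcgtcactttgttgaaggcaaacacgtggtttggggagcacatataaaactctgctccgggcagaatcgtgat
Gdf10: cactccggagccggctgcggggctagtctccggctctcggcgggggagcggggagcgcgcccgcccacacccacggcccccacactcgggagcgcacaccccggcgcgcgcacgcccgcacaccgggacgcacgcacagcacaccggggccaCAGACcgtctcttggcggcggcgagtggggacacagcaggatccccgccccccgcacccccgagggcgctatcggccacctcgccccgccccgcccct
Bmpr1b: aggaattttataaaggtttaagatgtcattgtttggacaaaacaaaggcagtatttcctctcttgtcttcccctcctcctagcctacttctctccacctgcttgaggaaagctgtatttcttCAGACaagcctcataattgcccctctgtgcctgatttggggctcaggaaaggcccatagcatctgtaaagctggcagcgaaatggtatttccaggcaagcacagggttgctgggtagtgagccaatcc
The Tgfb2 window held 2 matches and the others 1 each. Of all 32817 RefSeq windows of this length 42.2% held GTCTG on either strand, and 18 of the 38 members did in at least 1 of their windows. Members were counted by gene over 46 windows, so their counts are not on the scale of the shares of windows. The GC-rich BMP element GGCGCC, its own reverse complement, was in none of these 3 windows, in 8 members, and in 9.59% of all windows. The letters are a description of the windows and say nothing of binding.

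In the single cells, 4029 endocrine cells were sorted into classes by the hormone mRNA they held, and UMIs were summed per class and experiment. In experiments 1 and 2 these classes were Ppy+ (663 and 744 cells), Gcg+ (316 and 306), Ins2+ (431 and 93), Sst+ (130 and 129), and the bihormonal Ppy+Gcg+ (367 and 345), Ppy+Sst+ (180 and 214) and Ppy+Ins2+ (73 and 38). Of the 1407 Ppy+ cells 1399 came from YFP+ libraries, while 622 of 622 Gcg+, 523 of 524 Ins2+ and 259 of 259 Sst+ cells came from YFP- libraries, so that sorted fraction and class cannot be told apart among monohormonal cells. At this depth 12 members had no UMI in any class and 8 had 1 to 9. Another 12 had at least 10 but did not pass the filter, and 21 were tested. The filter works on levels in single sums and not on total UMIs, so Inhba with 97 UMIs was not tested. Bmp3 had 39 UMIs in Sst+, 57 in Ppy+Sst+ and at most 3 in any other class. It was therefore tested only through the classes where it is high, which limits what its calls show. Levels are TMM-scaled CPM of the sums, given for experiment 1 and then experiment 2, and a call here needed an edgeR adjusted p up to 0.05 and a log2 fold change of 0.72 or more in size. Of the 21 tested members 10 were called in at least 1 of the 9 comparisons. The share of all tested genes called in at least 1 was not computed, so 10 of 21 cannot be called more than usual.

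**Figure D3:**
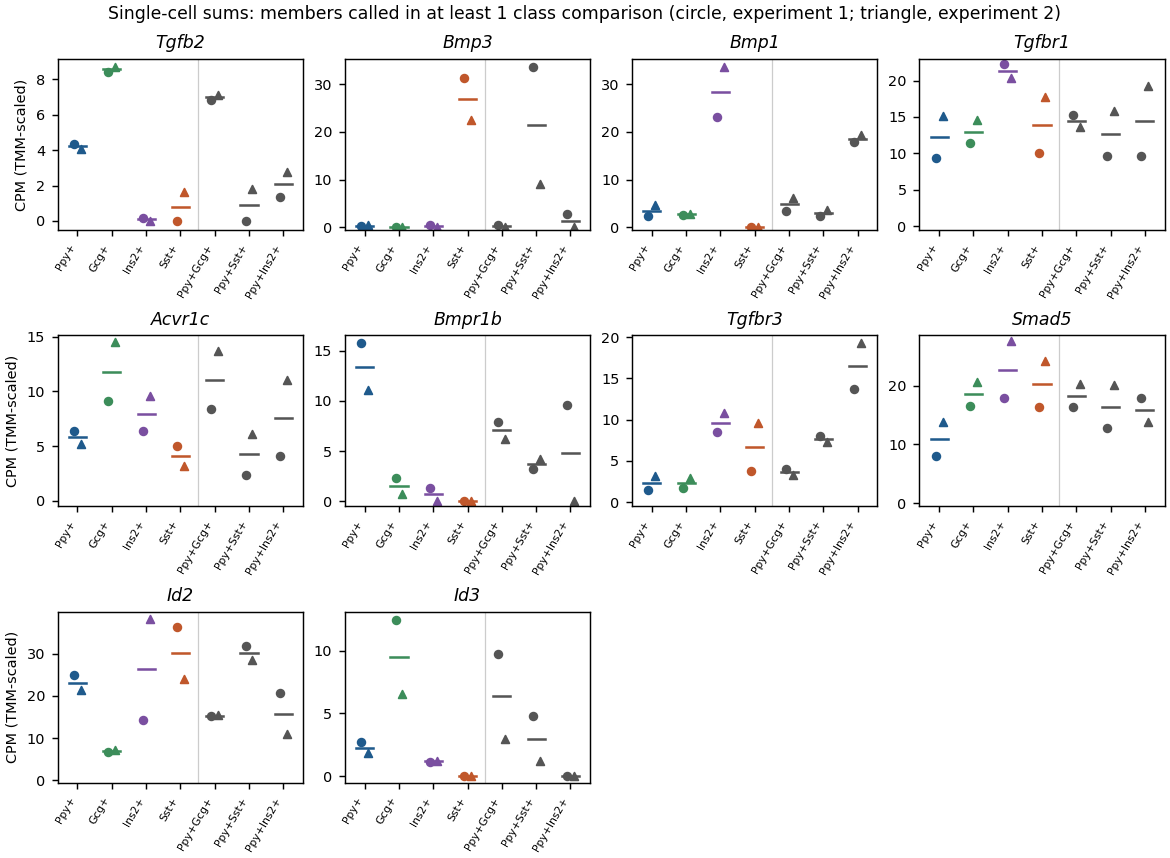
TMM-scaled CPM of the 10 members called in at least 1 single-cell comparison, by hormone class, with a circle for experiment 1, a triangle for experiment 2 and a bar at their mean. Bmp3 is high in Sst+ and Ppy+Sst+ cells, Bmp1 in Ins2+ and Ppy+Ins2+ cells, Tgfb2 and Id3 in Gcg+ and Ppy+Gcg+ cells, and Bmpr1b in Ppy+ cells.

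Between Ppy+ and Gcg+ cells, the γ- and α-cell classes, 6 of the 21 members were called, beside 12.8% of all 10272 tested genes. Bmpr1b was higher in Ppy+ cells, at 15.7 and 11.1 CPM against 2.36 and 0.726 CPM (log2 difference 3.07 ± 0.43, edgeR adjusted p = 2e-06). Id2 was also higher, at 25.0 and 21.3 CPM against 6.73 and 7.26 CPM (1.73 ± 0.29, edgeR adjusted p = 2.93e-05). In each of these genes both Ppy+ sums were above both Gcg+ sums, which was not counted over all tested genes either. Id3 was lower in Ppy+ cells, at 2.69 and 1.81 CPM against 12.5 and 6.53 CPM (-2.06 ± 0.41, edgeR adjusted p = 0.000303). Smad5 was at 8.07 and 13.8 CPM against 16.5 and 20.7 CPM (-0.78 ± 0.21, edgeR adjusted p = 0.00793). Acvr1c was at 6.42 and 5.21 CPM against 9.09 and 14.5 CPM (-0.98 ± 0.30, edgeR adjusted p = 0.0163). Tgfb2 was at 4.35 and 4.08 CPM against 8.42 and 8.71 CPM (-1.01 ± 0.36, edgeR adjusted p = 0.0461). DESeq2 no longer called Tgfb2 (adjusted p = 0.313), Acvr1c (0.186) or Smad5 (0.0683), and with the library as a block edgeR no longer called Bmpr1b (adjusted p = 0.196), Id3 (0.114), Acvr1c (0.514) or Smad5 (0.526). With cells thinned to 1000 UMIs Id2 was not called (edgeR adjusted p = 0.0649).

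Between Ppy+ and Ins2+ cells, the γ- and β-cell classes, 6 members were called, beside 26.4% of all genes. Tgfb2 had 39 UMIs in Ppy+ cells and 1 UMI in Ins2+ cells, which is a ratio of 25.5 with an exact 95% counting interval of 4.31 to 1031 (edgeR adjusted p = 0.000155). Bmpr1b was higher in Ppy+ cells, since Ins2+ cells held 1.35 and 0 CPM (log2 difference 3.67 ± 0.47, edgeR adjusted p = 1.56e-07). The other 4 were higher in Ins2+ cells. Bmp1 was at 23.1 and 33.5 CPM in Ins2+ cells against 2.28 and 4.76 CPM in Ppy+ cells (Ppy+ minus Ins2+ -3.02 ± 0.28, edgeR adjusted p = 2.12e-10). Tgfbr3 was at 8.46 and 10.8 CPM against 1.45 and 3.17 CPM (-2.07 ± 0.40, edgeR adjusted p = 1e-04). The remaining pair, a type I receptor and a BMP-branch Smad, changed less. Tgfbr1 was at 22.3 and 20.4 CPM against 9.32 and 15.2 CPM (-0.95 ± 0.22, edgeR adjusted p = 0.00102). It lost its call with the library as a block (edgeR adjusted p = 0.0681) and without the block for the experiment (0.0542). Smad5 was at 17.9 and 27.5 CPM against 8.07 and 13.8 CPM (-1.01 ± 0.22, edgeR adjusted p = 0.000396), and lost its call with the library as a block (adjusted p = 0.125). Both differences rest on the TMM factors. In CPM of all UMIs of a class with no scaling factor, Tgfbr1 was at 11.5 in Ins2+ and 10.3 in Ppy+ cells. Smad5 was at 9.99 and 9.16 CPM on that scale. With hormone genes left out of the scaling both calls stayed.

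Between Ppy+ and Sst+ cells, the γ- and δ-cell classes, 3 members were called, beside 12.3% of all genes. Bmp3 was at 31.3 and 22.5 CPM in Sst+ cells and at 0.207 and 0.453 CPM in Ppy+ cells. On 39 against 3 UMIs this was a ratio of 84.6 with an exact counting interval of 26.9 to 428 (edgeR adjusted p = 1.06e-08). Bmpr1b and Bmp1 had no UMI in Sst+ cells, where 3 UMIs over both experiments would be 2.11 CPM. Against that floor the Ppy+ level of Bmpr1b was at least 6.40-fold higher (edgeR adjusted p = 0.00017) and Bmp1 at least 1.64-fold higher (edgeR adjusted p = 0.0333). The Bmp1 call was lost with DESeq2 (adjusted p = 0.112), with the library as a block (edgeR adjusted p = 0.116) and without the cluster requirement for monohormonal cells (edgeR adjusted p = 0.0902).

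The comparisons among the other classes placed Tgfb2 and Id3 in Gcg+ cells. Between Gcg+ and Ins2+ cells 6 members were called, beside 22.7% of all genes, with Tgfb2 (49 UMIs against 1, ratio 51.7, exact counting interval 8.85 to 2082) and Id3 (12.5 and 6.53 CPM against 1.15 and 1.20 CPM) higher in Gcg+ cells. Bmp1 (-3.32 ± 0.33), Tgfbr3 (-2.07 ± 0.45), Id2 (-1.43 ± 0.33) and Tgfbr1 (-0.86 ± 0.24) were lower on the log2 scale. In Ins2+ cells Id2 was at 14.4 and 38.3 CPM, values on either side of those of Ppy+ cells, and its call was lost without the cluster requirement (edgeR adjusted p = 0.241), as that of Tgfbr1 was with DESeq2 (adjusted p = 0.106). Tgfbr1 was also not called without the block for the experiment (edgeR adjusted p = 0.11). With no scaling factor Tgfbr1 lay in the other direction, at 14.4 CPM in Gcg+ and 11.5 CPM in Ins2+ cells. Between Gcg+ and Sst+ cells 4 members were called, beside 12.1% of all genes. Bmp3 had no UMI in Gcg+ cells and was at least 52.4-fold lower than in Sst+ cells, and Id2 was lower by a log2 difference of -2.14 ± 0.40. Id3 had no UMI in Sst+ cells and was at least 4.55-fold higher in Gcg+ cells. Tgfb2, with 49 UMIs against 1 (ratio 12.2, exact counting interval 2.08 to 490), lost its call with DESeq2 (adjusted p = 0.133). Between Ins2+ and Sst+ cells 2 members were called, beside 15.7% of all genes. These were Bmp1, at least 11.6-fold higher in Ins2+ cells, and Bmp3, with 3 UMIs in Ins2+ against 39 in Sst+ cells (ratio 55.3, exact counting interval 17.6 to 280).

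Bihormonal cells were compared with the Ppy+ cells that held Ppy alone. The bihormonal cells came from any endocrine cluster, while monohormonal cells had to lie in a cluster of their hormone. The study left out bihormonal cells that lay in monohormonal clusters, so its bihormonal classes are not the same as these. Doublet removal took 13 and 4 cells from the YFP+ libraries of experiments 1 and 2, and 49 and 62 from the YFP- libraries. Whether doublets remained among the bihormonal cells was not tested. In Ppy+Gcg+ cells 2 members were called, beside 2.76% of all genes. Id3 was at 9.76 and 2.97 CPM (log2 difference to Ppy+ 1.46 ± 0.42, edgeR adjusted p = 0.0356) and Smad5 at 16.3 and 20.2 CPM (0.75 ± 0.20, edgeR adjusted p = 0.0234). Neither was called with DESeq2 (adjusted p = 0.551 and 0.227) or without the block for the experiment (edgeR adjusted p = 0.489 and 0.439). In experiments 1 and 2, 249 and 279 of the Ppy+Gcg+ cells lay outside the Gcg cluster. With only those cells Smad5 was not called (edgeR adjusted p = 0.201), while Id3 kept its call. Tgfb2, at 6.85 and 7.13 CPM, and Acvr1c, at 8.44 and 13.7 CPM, lay above Ppy+ cells in both experiments without passing the test (edgeR adjusted p = 0.317 and 0.0711). Bmpr1b, at 7.91 and 6.24 CPM, lay below Ppy+ cells in both, also without passing it (-0.92 ± 0.29, edgeR adjusted p = 0.066).

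In Ppy+Sst+ cells 3 members were called, beside 7.83% of all genes. Bmp3 was at 33.5 and 9.10 CPM, or 57 UMIs against 3 in Ppy+ cells (ratio 60.5, exact counting interval 19.7 to 302, edgeR adjusted p = 1.52e-08). Tgfbr3 was also higher, at 7.99 and 7.28 CPM (log2 difference 1.69 ± 0.48, edgeR adjusted p = 0.0166), and Bmpr1b was lower, at 3.19 and 4.25 CPM (-1.77 ± 0.44, edgeR adjusted p = 0.00644). Bmpr1b lost its call with DESeq2 (adjusted p = 0.0974) and without the block for the experiment (edgeR adjusted p = 0.0969). Tgfbr3 lost its call without that block (edgeR adjusted p = 0.0671) and without the cluster requirement (edgeR adjusted p = 0.0501). Of the 394 Ppy+Sst+ cells 136 came from YFP- libraries. When Ppy+Sst+ cells were limited to the 12 and 30 outside the Sst cluster, none of the 3 calls remained. The edgeR adjusted p was 0.705 for Bmp3, 0.849 for Tgfbr3 and 0.931 for Bmpr1b. In Ppy+Ins2+ cells 2 members were called, beside 6.49% of all genes. Tgfbr3 was at 13.8 and 19.3 CPM (2.81 ± 0.54, edgeR adjusted p = 0.000496) and Bmp1 at 17.9 and 19.3 CPM (2.48 ± 0.45, edgeR adjusted p = 0.000292). Of these cells 1 in each experiment lay outside the Ins2 cluster, so that the classes cannot be separated from their clusters there.

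The other 11 tested members were called in none of the 9 comparisons. Smad4 lay between 20.2 and 22.6 CPM in the means of the 4 monohormonal classes, and Bmpr1a between 22.4 CPM in Ins2+ and 33.5 CPM in Sst+ cells. Smad1 was lowest in Ppy+ cells at 16.7 CPM and highest in Sst+ cells at 27.9 CPM. Inha lay between 8.07 CPM in Gcg+ and 10.7 CPM in Ppy+ cells, and Acvr2b between 10.2 CPM in Ppy+ and 12.4 CPM in Sst+ cells. A level that did not pass the test is not thereby shown to be equal between classes.

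Over the 9 comparisons the members' median log2 difference was close to 0 where Ppy+ cells were compared with other monohormonal classes, at 0.00, 0.03 and -0.04 against Gcg+, Ins2+ and Sst+ cells, where the medians of all tested genes were -0.02, 0.00 and 0.02. Among the other classes it was 0.01 for Gcg+ against Ins2+, -0.09 for Gcg+ against Sst+ and 0.10 for Ins2+ against Sst+ cells. In bihormonal cells it was 0.19, 0.20 and 0.16 for cells that held Gcg, Sst or Ins2 beside Ppy, against Ppy+ cells, beside all-gene medians of 0.00, 0.01 and -0.05.

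The bulk comparison of γ- with δ-cells and the single-cell comparison of Ppy+ with Sst+ cells address related contrasts in separate samples. Their cells were not chosen alike. Bulk γ-cells were sorted by YFP alone, while the Ppy+ class left out bihormonal cells. In the YFP+ single-cell libraries 1399 cells were Ppy+. Another 627 held Gcg beside Ppy, 258 held Sst beside it and 100 held Ins2. Of 21 members tested in both, 14 were called in bulk and 3 of these also in single cells, in the same direction, namely Bmpr1b, Bmp1 and Bmp3. The share over all genes tested in both was not computed, so 3 of 14 cannot be called fewer than usual. The other 10 members that were higher in bulk γ-cells had single-cell log2 differences between -0.79 and 2.49. For Smad4 the difference was 2.75 ± 0.10 in bulk and 0.07 ± 0.28 in single cells, and for Acvr2b it was 2.71 ± 0.24 and -0.25 ± 0.38. For Smad1 it was 1.70 ± 0.13 and -0.74 ± 0.30. Over these 21 members the median was 1.48 in bulk and -0.04 in single cells. The same medians over all genes tested in both were not computed. Whether the 2 measurements differ was not tested, since they rest on separate libraries, chemistries and classes.

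**Figure D4:**
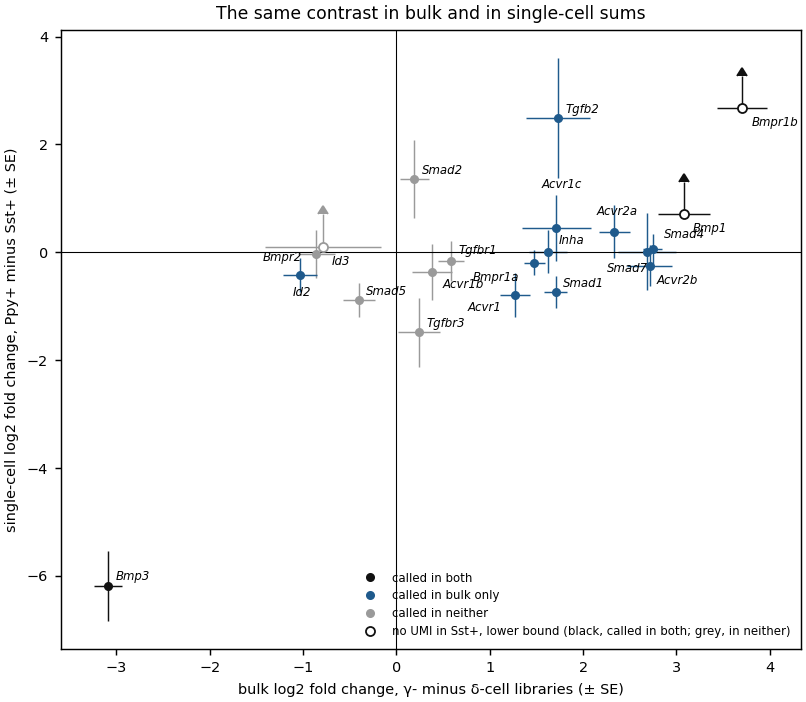
Log2 fold change of the 21 members tested in both data sets, bulk γ- minus δ-cells (x axis) and single-cell Ppy+ minus Sst+ (y axis), with standard errors, and open points with arrows for lower bounds where Sst+ cells held no UMI. Bmp3 and Bmpr1b lie away from 0 on both axes, while Smad4, Acvr2a, Acvr2b and Smad7 lie above 2 in bulk and near 0 in single cells.

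Tgfbr2 and Gdf10, both higher in bulk γ-cells, had 27 and 4 UMIs over the 7 hormone classes and far higher levels in other clusters. The clusters are named from their markers and their values, in CPM of all UMIs of a cluster or class with no scaling factor, are a description with no test. Tgfbr2 was at 391 and 693 CPM in the 282 stromal-like cells and at 167 CPM in the 233 endothelial-like cells, against 0.275 CPM in Ppy+ cells and no UMI in Sst+ cells. Gdf10 was at 219 and 149 CPM in stromal-like cells and at 0.183 CPM in Ppy+ cells. Bmp1 was at 154 and 187 CPM in stromal-like cells, which exceeded the 12.7 CPM of Ins2+ cells on this scale. Stromal markers were higher in bulk γ-cells, as given above for the whole list. Their sums were 947, 975, 3863, 1615 and 1419 CPM in γ-cell libraries 1 to 5. In δ-cell libraries 1 to 3 they were 803, 318 and 20.1 CPM. Gdf10 was also highest in γ-cell library 3, while Tgfbr2 was highest in γ-cell library 5 at 74.7 CPM. Bmp1 stayed between 42.5 and 50.8 CPM in γ-cell libraries. The part of stromal cells in the bulk values of Gdf10, Tgfbr2 and Bmp1 was not tested. The 8 β-cell markers summed to 10394 to 24400 CPM in bulk γ-cells and 3632 to 5091 CPM in δ-cells, with 7 of 8 higher in γ-cells. Bmp1, highest in Ins2+ cells among the 4 monohormonal classes, was higher in bulk γ-cells too. So were the α-cell markers and Tgfb2, a gene highest in Gcg+ cells among these classes. The α-cell sums were 79097, 96807, 58079, 48601 and 78092 CPM in γ-cell libraries 1 to 5 and 5987, 2134 and 1404 CPM in δ-cell libraries 1 to 3. The β-cell sums were 17102, 24400, 10394, 15586 and 20400 CPM in the γ-cell libraries and 3632, 5091 and 4010 CPM in the δ-cell libraries. Tgfb2 and Bmp1 are given by library above, and the part of either cell type in them was not tested.

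The Id genes had their highest levels outside the endocrine classes. Id3 was at 1431 and 1623 CPM and Id1 at 790 and 1055 CPM in endothelial-like cells, against 10.7 and 1.94 CPM in Gcg+ cells, the highest of the 4 monohormonal classes. Id2 was at 389 and 406 CPM in ductal-like cells, a cluster of 120 cells led by Spp1. Acvrl1 was at 231 and 226 CPM in endothelial-like and 96.8 and 75.4 CPM in stromal-like cells, and Bmp4 at 64.6 and 79.4 CPM in stromal-like cells with no UMI in Ppy+, Gcg+, Ins2+ or Sst+ cells. Smad6 was at 41.0 and 73.0 CPM in endothelial-like cells. Tgfb1 was at 10.8 and 39.9 CPM in myeloid-like cells. Bmpr1b and Acvr1c had no UMI in stromal-like, endothelial-like or myeloid-like cells, and Inha had 2 UMIs in stromal-like and none in endothelial-like or myeloid-like cells. These genes were not absent from all other clusters. Bmpr1b was at 13.0 CPM in the 33 acinar-like cells of the first round (4 UMIs), at 10.7 CPM in the 95 of the second round (7 UMIs) and at 7.53 CPM in the 39 T/NK-like cells (3 UMIs), where Ppy+ cells were at 11.5 CPM. Acvr1c was at 10.7 CPM in the second-round acinar-like and 17.6 CPM in the T/NK-like cells, and Inha at 15.1 CPM in the T/NK-like cells. Of the second-round acinar-like cells 77 and of the T/NK-like cells 29 came from YFP+ libraries.

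**Figure D5:**
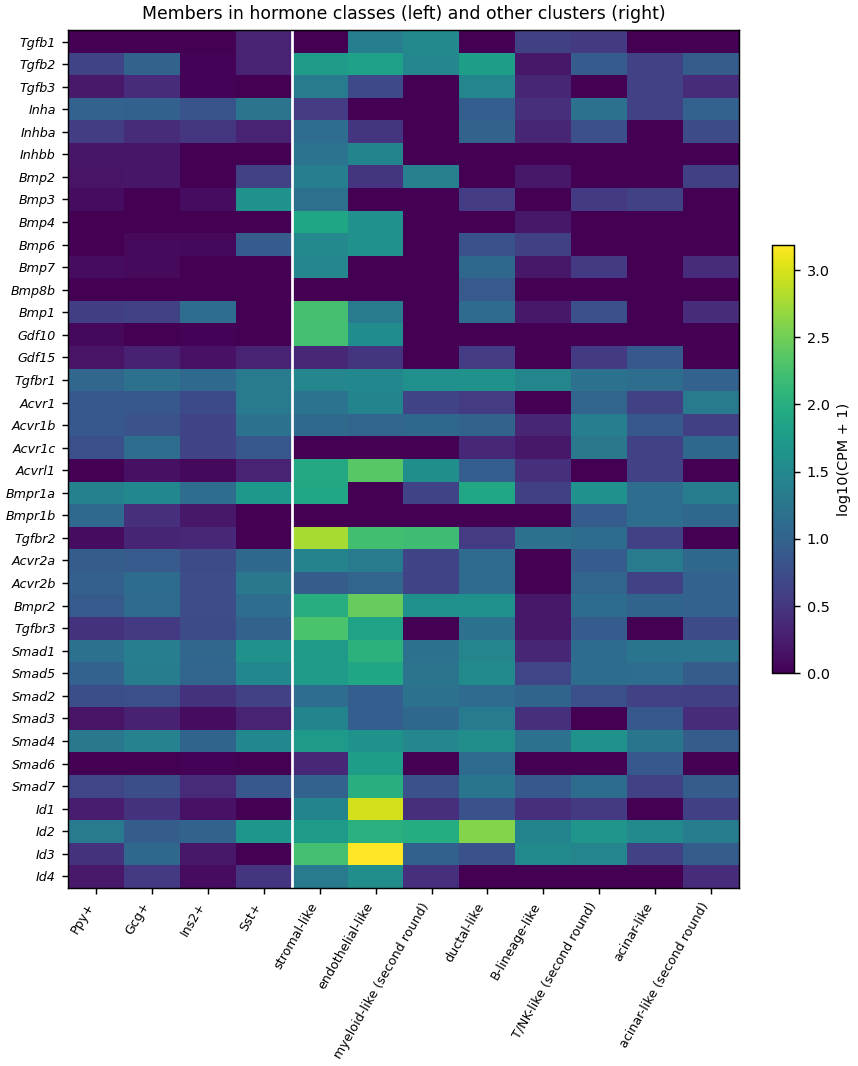
Members (rows) by hormone class (left of the white line) and by cluster of other cells (right), coloured by log10(CPM + 1) of UMIs summed over both experiments. Id1 and Id3 are brightest in endothelial-like cells, Tgfbr2, Gdf10 and Bmp1 in stromal-like cells and Id2 in ductal-like cells, while Bmpr1b and Acvr1c are dark in stromal-like, endothelial-like and myeloid-like cells and brighter in acinar-like (Bmpr1b in both, Acvr1c in the second-round cluster) and T/NK-like cells.

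Further genes of the pathway came from a list of 62 antagonists, latency and integrin genes, co-receptors, intracellular regulators and target genes. In bulk 50 were tested, 20 were higher and 4 lower in γ-cells, beside 20.7% and 14.2% of all genes. The median log2 difference was 1.10, beside -0.06 over all genes. Nbl1, a secreted BMP antagonist, was at 78.2, 63.2, 74.7, 81.3 and 107 CPM against 1.81, 0.639 and 3.42 CPM (5.36 ± 0.39, edgeR adjusted p = 1.42e-06). Htra1, a secreted protease, was higher by 4.12 ± 0.87, and Ltbp3, which binds latent TGF-β, by 3.39 ± 0.12 at 216 to 237 CPM against 19.4 to 25.3 CPM. The γ-cell values of Htra1 ran from 6.36 to 28.4 CPM, with the highest in γ-cell library 3. Sostdc1, an antagonist, was lower by a log2 difference of -2.61 ± 0.75 and Tgif1, a Smad corepressor, by -2.11 ± 0.38. The Sostdc1 groups overlapped, with 5.80 CPM in γ-cell library 4 above 3.18 CPM in δ-cell library 3. Its highest value, 23.3 CPM, was in δ-cell library 1.

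In single cells 26 genes of this list were tested. Against Ppy+ cells 4 were called in Gcg+ cells (12.8% of all genes), 13 in Ins2+ cells (26.4% of all genes) and 4 in Sst+ cells (12.3% of all genes). Nbl1 was at 27.6 and 48.2 CPM in Sst+ cells against 3.73 and 12.9 CPM in Ppy+ cells, which is the opposite direction to bulk. Of the 16 genes of this list that were tested in both data sets and higher in bulk γ-cells, 1 was called higher in Ppy+ than in Sst+ cells, 1 lower and 14 were not called. Their bulk and single-cell medians over the 26 genes tested in both were 1.70 and -0.06. Neither these counts nor these medians were computed over all genes tested in both.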

How the data were processed

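Bulk RNA-seq of 5 γ-cell and 3 δ-cell libraries and single-cell RNA-seq of 4 libraries were used as raw counts, which the authors deposited per gene (STAR 2.7.2b and HTSeq 0.9.1 for bulk, Cell Ranger for UMIs, per the submitters' processing notes). Another 6 columns of the bulk counts, of other samples, were not used. The members and lists were chosen with earlier results of these data known. All members could be named, with full values for called ones, and of the further pathway list the 3 largest called changes per direction and comparison, of which some are not reported here. Genes were tested with edgeR 4.0.16 in R 4.3.3 (TMM, quasi-likelihood test, Benjamini-Hochberg adjustment over all genes). The standard errors given are the size of the log2 fold change divided by the square root of the quasi-likelihood F statistic. They are derived from that test and are not estimated separately. The bulk test took genes whose mean count over libraries reached 5 and a log2 threshold of 1. Before clustering 128 doublets were removed. Scrublet called 8 cells, and a nearest-neighbour caller took a fixed 2% of the cells of each experiment. Single cells were then clustered with Seurat 5.3.0. Clusters led by markers of other cell types were dropped (5 in a first and 3 in a second round, the latter chosen after the clusters were seen). Hormone thresholds set the classes. The 14 sums of 7 classes and 2 experiments were fitted together with the experiment as a block (filterByExpr, log2 threshold 0.721). Bulk libraries of the same number had correlations of -0.166, 0.0867 and -0.312 once group means were removed, so no block was used there. Bounds stand at 3 counts, and counting intervals are exact at 95% and cover counting error only. Alternatives were DESeq2 1.42.0, other normalizations, filters, blocks, thinning, classes and samples left out. Gene positions came from GENCODE (GRCm38) and promoters from RefSeq (GRCm38.p6). Scripts were tested on simulated data. Plots were drawn with matplotlib 3.10.9 in Python 3.11.15.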

Additional observations from a re-analysis of the deposited data

Results flagged for a closer look

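Within the 5 γ-cell libraries, 1 library stood apart from the others in 5 of the 40 tested members. The rule flags about 1 in 20 genes where values are normally spread and genes are independent. Neither is known for the CPM of genes measured in the same libraries. The share flagged over all tested genes was not computed, so 5 of 40 cannot be called more than usual. Tgfb1 (3.43 CPM, nearest other library 1.94), Gdf10 (39.3, nearest 10.1) and Smad3 (19.2, nearest 10.7) were highest in γ-cell library 3, which also held the highest stromal marker sum of 3863 CPM, and the part of stromal cells was not tested. Inha was lowest in γ-cell library 2 (33.7 CPM, nearest 56.2). Smad1 was lowest in γ-cell library 4 (67.4 CPM, nearest 81.9). Without any of these libraries the calls of these 5 genes in the bulk comparison kept their direction and their side of the threshold.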

How the results depend on the processing

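In bulk the count of called members was 18 to 25 in 18 alternatives, and 21 to 24 when each library was left out in turn. The replicate block on libraries 1 to 3 gave 18 (16 higher, 2 lower), and the same libraries without the block, an alternative chosen after seeing the data, gave 20. The numbers do not pair these libraries. Upper-quartile normalization moved the median of all genes to -0.35 and that of members to 0.33, with 17 members higher and 6 lower, and 3055 of all genes higher and 3746 lower, where TMM gave 3715 and 2553. In single cells 82 of 102 counts stayed within 1.5 times the value reported. Of the others, DESeq2 gave 3 members for Ppy+ against Gcg+ and 0 for Ppy+Gcg+ against Ppy+ cells. Over all genes DESeq2 called 379 higher and 423 lower in the former and 95 and 36 in the latter. The reported fit called 610 and 703 in the former and 189 and 95 in the latter. The fit without the replicate block for the experiment gave 3 and 0 in these comparisons and 1 for Ppy+Sst+ against Ppy+ cells. Its calls over all genes were 364 higher and 392 lower, 61 and 21, and 306 and 115, in the same order. The reported fit called 550 and 254 for Ppy+Sst+ against Ppy+ cells. With the library as a block, which links YFP+ and YFP- classes through bihormonal cells, 1 member was called for Ppy+ against Gcg+ and 3 for Ppy+ against Ins2+ cells. Over all genes that block left 157 higher and 167 lower against Gcg+ cells, and 652 and 715 against Ins2+ cells. The reported fit called 1259 and 1456 against Ins2+ cells. Without the cluster requirement 4 were called for Ins2+ against Sst+ cells, with 868 of all genes higher and 850 lower. The reported fit called 835 and 781 there. With bihormonal cells outside the cluster of their other hormone, 1 was called in Ppy+Gcg+, 1 in Ppy+Sst+ and 0 in Ppy+Ins2+ cells, where Tgfbr3 turned to -5.24 and Bmp1 to -5.84 on the log2 scale with 1 cell per experiment. Over all genes that setting called 126 higher and 48 lower in Ppy+Gcg+, 90 and 62 in Ppy+Sst+, and 26 and 278 in Ppy+Ins2+ cells. The reported fit called 443 and 224 in Ppy+Ins2+ cells. With cells thinned to 1000 UMIs 5 members passed the filter, and 1 was called for Gcg+ against Sst+ cells and 0 in the other 8 comparisons. For Gcg+ against Sst+ cells thinning left 250 of all genes higher and 214 lower, where the reported fit called 569 and 675. Keeping the clusters dropped in the second round, chosen after seeing the data, ended the call of Tgfb2 between Ppy+ and Gcg+ cells (edgeR adjusted p = 0.0622). Leaving out either experiment gave fold changes only, since no residual degrees of freedom remained, and all 68 kept their direction. At the depth of the Sst+ sums 1 UMI was 1.25 or 1.61 CPM, so that members under that level could not be compared there.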
